A study of Rattus norvegicus with 4 samples.

Results

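Adcy1, the gene of the calcium-stimulated adenylate cyclase, was examined in RNA-seq data from the rat hippocampus. All rows of the deposited transcript table with the symbol Adcy1 were taken, which gave 2 transcript models of the 830 in the table. The data come from 4 samples of male Wistar rats, 2 from fluoxetine-exposed and 2 from vehicle-exposed animals, and each sample pooled the tissue of 2 rats. Fluoxetine, a selective serotonin reuptake inhibitor, was given at 12 mg/kg per day by oral gavage between postnatal days (PND) 67 and 88. Vehicle-exposed rats received 1% methylcellulose in the same way and over the same days. Hippocampal tissue was punched from frozen brain slices at PND 128, 40 days after the last dose, so the comparison asks which differences were present long after the end of treatment. Its transcripts were selected on the p-value and fold change between these same samples, and Adcy1 was chosen by that difference, so the levels of Adcy1 and their difference are given as a description and without a test. In such bulk tissue, fewer cells of a type and less RNA per cell cannot be told apart.

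Adenylate cyclases make cyclic AMP (cAMP) from ATP. Most members of the family answer mainly to G proteins that receptors set free, while ADCY1 is also activated by calcium bound to calmodulin, so that calcium entry into a neuron can raise cAMP. The enzyme is abundant in neurons of the hippocampus and neocortex and has been studied for its part in synaptic plasticity and memory. Downstream, cAMP activates protein kinase A and the EPAC exchange factors, phosphodiesterases break it down, and transcription factors of the CREB family carry the signal to genes.

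For Adcy1, the study designed the pair of qRT-PCR primers below, which are shown because they define what was measured of this gene outside the sequencing. Their place in the listed models was not analysed here.
forward: ctgtgtggagatgggacttg
reverse: cacacgcatgttcaggtctac
The forward primer has 20 bases with 55% G or C, and the reverse primer has 21 bases with 52.4% G or C.

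Both listed models lie on the plus strand of chromosome 14 of the rat build rn4. The shorter model spans chr14:87913436-87926210 and has 6 exons with 3682 exonic bases. The longer model spans chr14:87859161-87929738 and has 17 exons with 8786 exonic bases. The longer model starts 54275 bases upstream of the shorter one and ends 3528 bases further downstream, so the shorter model lies within the 3′ part of the gene. Exons fill 28.8% of the span of the shorter model and 12.4% of that of the longer one. Neither model carries the accession of the rat RefSeq transcript of Adcy1, and their exons and ends were not checked against that transcript. A read that falls in an exon of both models counts for both, so the models are not independent measurements. Models of Adcy1 outside the table were not analysed here.

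Exonic reads of the shorter model numbered 5149 in the first and 5241 in the second fluoxetine sample, against 10077 in vehicle sample 1 and 6738 in vehicle sample 2. For the longer model the counts were 12110 and 10981 in the fluoxetine samples and 21009 and 14059 in the vehicle samples. Both fluoxetine samples were thus below both vehicle samples in either model, the fluoxetine samples were close to each other, and vehicle sample 1 stood well above vehicle sample 2. The libraries behind these counts held between 12512596 and 14080349 reads, as computed from the deposited normalized expression, and between 138314 and 162734 reads fell on listed transcripts. No model in the table had more reads than the longer Adcy1 model in any of the 4 samples. Together the models of Adcy1 held 10.6% (fluoxetine sample 1), 10.3% (fluoxetine sample 2), 21.6% (vehicle sample 1) and 15.0% (vehicle sample 2) of all reads on listed transcripts, with reads that fall in both models counted for each.

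Levels were compared on 2 scales. Normalized reads are the counts scaled by TMM, edgeR's method, over the listed transcripts. All of these had been selected for a difference, and the Adcy1 models were among them, so this scaling rests on no unselected transcripts. Normalized expression (NE) is the authors' read density, divided by transcript length and library size, and it allows levels of different transcripts to be compared. In normalized reads, the shorter model stood at 4895 ± 314 after fluoxetine and 8992 ± 2597 after vehicle (SD, n = 2 samples per group), and the longer model at 10913 ± 1587 and 18753 ± 5406 (SD, n = 2). The level after fluoxetine was 54.4% of that after vehicle for the shorter model and 58.2% for the longer one. The log2 fold change from edgeR was -0.88 (standard error 0.48) for the shorter and -0.78 (standard error 0.50) for the longer model. In the background, 341 of the 830 listed transcripts (41.1%) were lower after fluoxetine with groups that did not overlap in normalized reads, as both Adcy1 models were.

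On the NE scale, the shorter model had 0.993 (sample 1) and 1.05 (sample 2) after fluoxetine, and 1.95 and 1.46 after vehicle. The longer model had 0.979 and 0.925 in the fluoxetine samples and 1.71 and 1.28 in the vehicle samples. The groups did not overlap on this scale either, where 40.1% of the listed transcripts were lower and 34% higher without overlap. The ratio of the group means was 59.9% for the shorter model and 63.8% for the longer one, so the difference was smaller at the library sizes than at the TMM scaling. Relative to TMM, the library sizes raised the log2 fold changes of the listed transcripts by 0.11 at the median. At the library sizes the log2 fold changes of the shorter and longer models were -0.74 and -0.65.

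**Figure D1:**
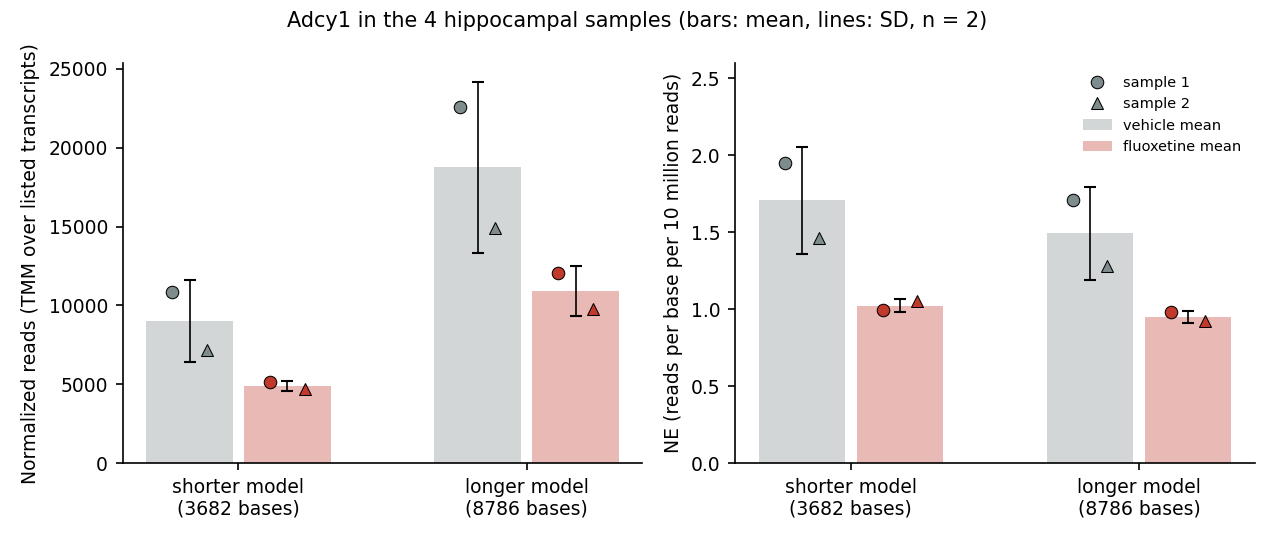
Levels of the shorter and longer Adcy1 models in normalized reads (left) and NE (right), with bars at the group means, lines for the SD (n = 2) and a point for each sample. Both fluoxetine samples lie below both vehicle samples in every panel, and vehicle sample 1 is the highest point of each model.

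The spread of Adcy1 was wider among the vehicle samples. In normalized reads of the shorter model, vehicle sample 1 was 1.51-fold above vehicle sample 2, while the fluoxetine samples differed by 1.10-fold, with sample 1 the higher. In NE, sample 2 was the higher of the fluoxetine samples for the shorter model and sample 1 for the longer one. The coefficient of variation in normalized reads was 28.9% for vehicle and 6.41% for fluoxetine in the shorter model. In the longer model it was 28.8% and 14.5%. On the NE scale it was 20.3% and 4.16% for the shorter model, and 20.3% and 4.01% for the longer one. Counting error was between 0.69% and 1.39% of the count of a model in a sample, which does not include the spread between rats. The gap between the groups, from the higher fluoxetine to the lower vehicle sample, was 1.40-fold for the shorter and 1.24-fold for the longer model. In both models this gap was smaller than the 1.51-fold step between the vehicle samples. On the NE scale the gap was 1.39-fold for the shorter model, above the 1.34-fold step between its vehicle samples, and 1.31-fold for the longer model, just below its step of 1.33-fold. Against vehicle sample 1, fluoxetine samples 1 and 2 stood at 47.3% and 43.2% for the shorter model, and against vehicle sample 2 at 71.5% and 65.3%.

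Vehicle sample 1 thus set much of the size of the difference. Without it, the log2 fold change was -0.55 (standard error 0.91) for the shorter and -0.45 (standard error 0.82) for the longer model. Without vehicle sample 2, it was -1.07 (standard error 1.33) and -0.99 (standard error 1.40). Leaving out fluoxetine sample 1 gave -0.94 for both models, and leaving out fluoxetine sample 2 gave -0.94 and -0.77. The direction was the same for both models in each of these fits.

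**Figure D2:**
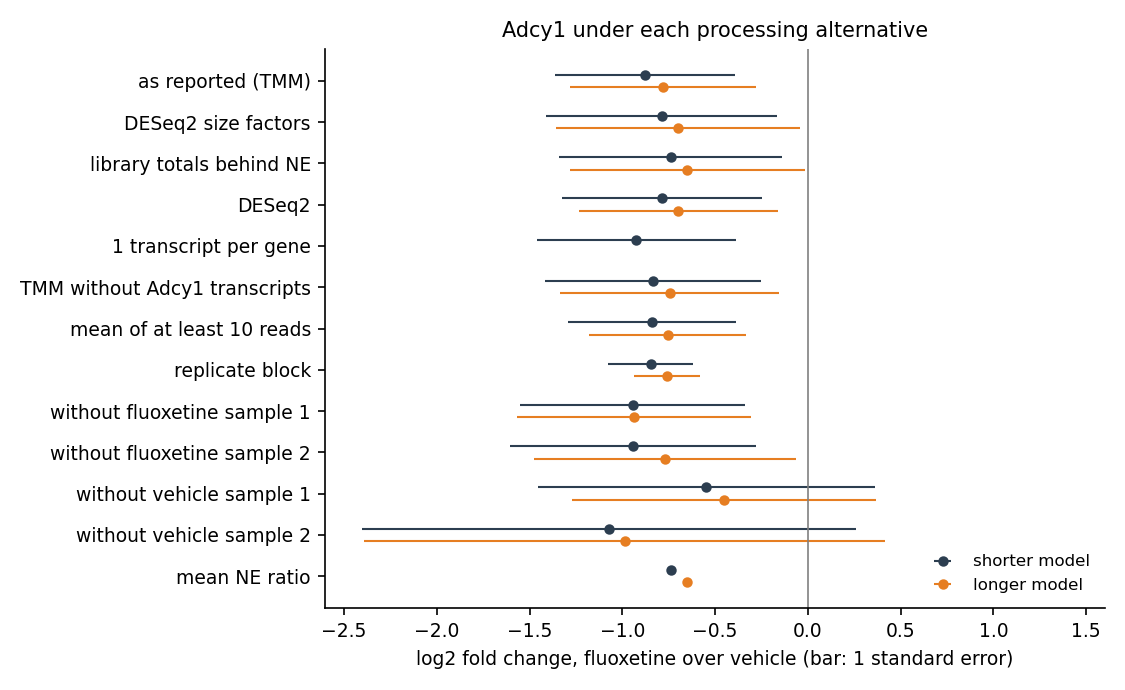
Log2 fold change of fluoxetine over vehicle for the shorter and longer Adcy1 models as reported and under each alternative, with bars of 1 standard error where a model was fitted. All points lie below 0, from -1.07 to -0.45, the points without vehicle sample 1 lie nearest to 0, and the bars cross 0 without either vehicle sample.

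The ratio of the count of the shorter model to that of the longer one can be read within a sample and needs no scaling. The count of the shorter model was 42.5% of that of the longer one in fluoxetine sample 1 and 47.7% in fluoxetine sample 2. In the vehicle samples it was 48.0% and 47.9%. Fluoxetine sample 1 was the sample that differed, and fluoxetine sample 2 stood close to the vehicle samples. The mean log2 ratio of the shorter to the longer model was -1.15 ± 0.12 for fluoxetine and -1.06 ± 0.00082 for vehicle (SD, n = 2), a difference of -0.090 (exact permutation test, two-sided, p = 0.333). With 2 against 2 samples no smaller p is possible, so the test cannot tell the groups apart. Without fluoxetine sample 1 the difference was -0.0066, and without fluoxetine sample 2 it was -0.17. Whether the listed exons of the shorter model are all part of the longer one is not given in the table. If they are, 6961 (sample 1) and 5740 (sample 2) reads after fluoxetine, and 10932 and 7321 reads after vehicle, fell in the other 5104 exonic bases of the longer model. These remaining reads were fewer in both fluoxetine samples than in either vehicle sample. Per kilobase they came to 1364 and 1125 in the fluoxetine samples and 2142 and 1434 in the vehicle samples, against 1398 and 1423, and 2737 and 1830, in the shorter model. Their log2 ratio of group means was -0.70 in normalized reads and -0.57 at the library sizes.

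Per length, Adcy1 was among the more abundant transcripts of the table but not the most abundant. By mean NE over the 4 samples, the shorter model ranked 11 and the longer model 15 of 830. Within samples, the NE rank of the shorter model was 28 (sample 1) and 20 (sample 2) after fluoxetine, and 3 and 11 after vehicle. Adcy1 thus stood further down the order of listed transcripts in both fluoxetine samples than in either vehicle sample.

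The difference in Adcy1 was small beside those of the other lower transcripts. Of the 398 transcripts that were lower after fluoxetine, only 17 had a smaller decrease than the shorter model and only 2 had a smaller decrease than the longer one. Since the thresholds of the table bound this order, it is a description of the table. Among the 30 listed transcripts with a mean of at least 1000 normalized reads, 8 were lower and 22 higher after fluoxetine. All 8 had groups that did not overlap, against 4 of the 22. Among all 830 transcripts, 341 of 398 with a decrease and 254 of 432 with an increase were also free of overlap. A lack of overlap was thus common among lower transcripts of this selected table. Models of the same gene can share reads, so the 8 are not independent. Besides the Adcy1 models, 3 of the 8 belong to Syn2, which encodes a synaptic vesicle protein, 1 each to Olfm1, a secreted glycoprotein of neurons, and Grina, a membrane protein, and 1 to no named gene. The shorter Adcy1 model had the largest decrease of the 8, but their log2 fold changes lay between -0.88 and -0.75 with standard errors of 0.43 to 0.50, so their order cannot be told apart.

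**Figure D3:**
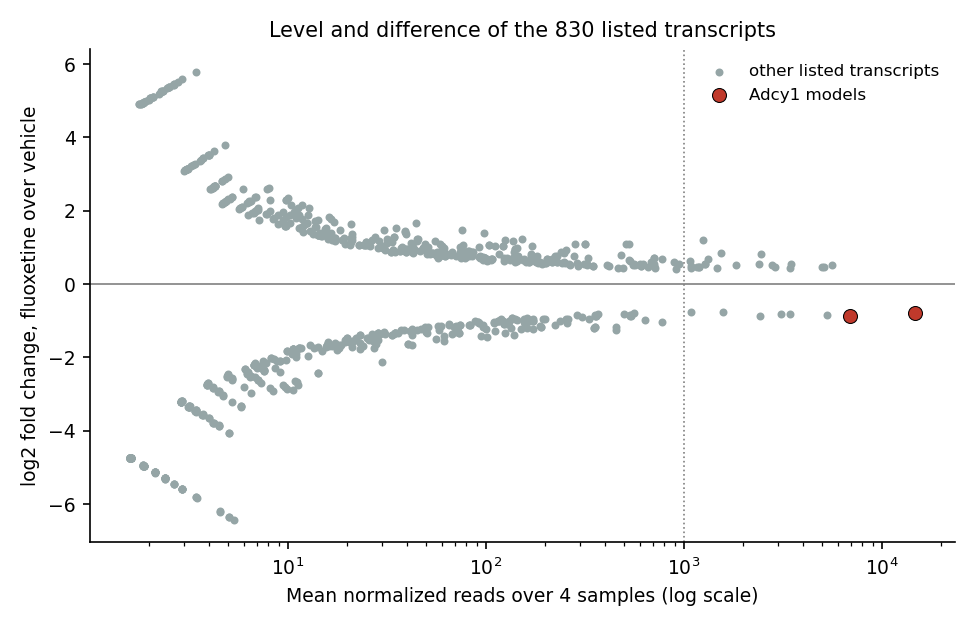
Log2 fold change of fluoxetine over vehicle against the mean normalized reads (log scale) of the 830 listed transcripts, with the Adcy1 models in red and a dotted line at 1000 reads. The band around 0 holds no transcripts, as the table lists only those past its p-value and fold change thresholds, and the Adcy1 models lie near its lower border at the highest levels.

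Genes of cAMP signalling, with Adcy1 among them, were taken from 10 lists with 156 genes, from calcium entry to CREB targets. The table holds 12 of these genes (7.69%), of which 9 were lower and 3 higher after fluoxetine. Adcy1, chosen for its decrease, is 1 of the 9, and without it 8 of 11 were lower. The median log2 fold change of the 12 genes, Adcy1 included, was -0.99, against 0.49 over all 830 transcripts. The median over all transcripts turned to -0.55 without fluoxetine sample 1 and to -0.38 without fluoxetine sample 2. All 9 lower genes, Adcy1 included, had groups that did not overlap in normalized reads, while none of the 3 higher genes did. In the whole table, 341 of the 398 lower and 254 of the 432 higher transcripts had no overlap (41.1% and 30.6% of all 830). A lack of overlap was thus common among lower transcripts in general. On the NE scale, 8 of the 12 genes were lower and 1 higher without overlap. At an adjusted p under 0.05 from edgeR, 0 of the 11 genes other than Adcy1 passed, and 0 of the 830 transcripts did, with 0.19 as the minimum. Without adjustment, at p under 0.05 from edgeR, 2 of the 8 lower genes other than Adcy1 (Nos1 and Pde7b) and 0 of the 3 higher genes passed, and from DESeq2 1 of the 11 (Pde7b) did. In the whole table these counts were 147 lower (17.7%) and 49 higher (5.90%) from edgeR, and 10 lower (1.2%) and 0 higher from DESeq2. The size of the excess of lower counts from edgeR depended on the scaling. There were 74 lower and 60 higher at the library sizes, and 93 lower and 49 higher at the size factors of DESeq2. Every gene in the table had been chosen for a difference in these samples, so these counts are a description of the table and not of the pathway.

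Of 10 adenylate cyclases, Adcy1 was the only one in the table. None of 15 G protein subunits was listed. Among 9 serotonin receptors, Htr5b was listed. Its level was 236 (sample 1) and 452 (sample 2) normalized reads after fluoxetine, and 228 and 238 after vehicle. Only fluoxetine sample 2 stood out, and the log2 fold change of 0.56 was -0.11 without it.

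On the side of calcium, 1 of 18 genes of calcium entry and removal was listed. This was Atp2b4, a calcium pump of the plasma membrane, at 70.6 and 104 normalized reads after fluoxetine and 105 and 245 after vehicle. Vehicle sample 2 stood out, and the groups overlapped on the NE scale, where fluoxetine sample 2 (0.0271) lay above vehicle sample 1 (0.0219). The group means were 87.4 and 175 normalized reads, and leaving out vehicle sample 2 brought the log2 fold change to -0.15. Nos1, the neuronal nitric oxide synthase, is activated by calcium-bound calmodulin like ADCY1, and was the only one listed of 17 genes of calmodulin and its partners. It stood at 9.94 and 10.7 normalized reads after fluoxetine and at 45.1 and 26.5 after vehicle. Like Adcy1, it had its highest level in vehicle sample 1, though the listed model of 646 bases held only 89 reads over the 4 samples.

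Downstream of cAMP, Pkib, an inhibitor of protein kinase A, was the only one listed of 20 genes of protein kinase A, its inhibitors and its anchors. It stood at 82.5 and 37.4 normalized reads after fluoxetine and at 125 in each vehicle sample. Rapgef3, the exchange factor EPAC1, was the only one listed of 11 cAMP-gated factors and channels, at 5.96 and 20.5 normalized reads after fluoxetine and 35.5 and 39.3 after vehicle. For both genes the fluoxetine samples differed from each other while the vehicle samples were close. Pde7b, a phosphodiesterase specific for cAMP, was the only one listed of 16 phosphodiesterases, apart from a row shared by Cyct and Pde11a that was not counted. It stood at 67.6 and 41.9 normalized reads after fluoxetine and at 155 and 142 after vehicle, a log2 fold change of -1.44 (standard error 0.49). Of the lower genes on these lists, Pkib and Pde7b act against cAMP signalling, while Adcy1 and Rapgef3 act in its favor.

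Of 12 genes of the CREB family and its coactivators, Creb5 was listed, under its older symbol RGD1566107. It had 4 and 18 reads in the fluoxetine samples and 1 and 4 in the vehicle samples, so that its higher mean rested on fluoxetine sample 2. Of 28 activity-dependent genes with cAMP response elements, 4 were listed. Jun, an immediate early transcription factor, stood at 478 and 380 normalized reads after fluoxetine and at 1009 and 676 after vehicle, a log2 fold change of -0.97 (standard error 0.47). Pdyn, the precursor of the dynorphin peptides, had 477 and 243 against 646 and 633 normalized reads. Ppargc1a, a transcriptional coactivator of mitochondrial genes, had 5 and 0 reads in the fluoxetine samples and 16 and 19 in the vehicle samples. Sst, the precursor of somatostatin, was on the higher side, at 3577 and 2138 normalized reads after fluoxetine and 1638 and 2290 after vehicle. The groups of Sst overlapped in normalized reads but not on the NE scale, where they were 4.52 and 3.14 against 1.93 and 3.05. Jun, Pde7b and Pdyn shared the order of the samples seen for Adcy1 in normalized reads, from vehicle sample 1 at the top through vehicle sample 2 and fluoxetine sample 1 to fluoxetine sample 2, though for Pde7b and Pdyn the vehicle samples were close.

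**Figure D4:**
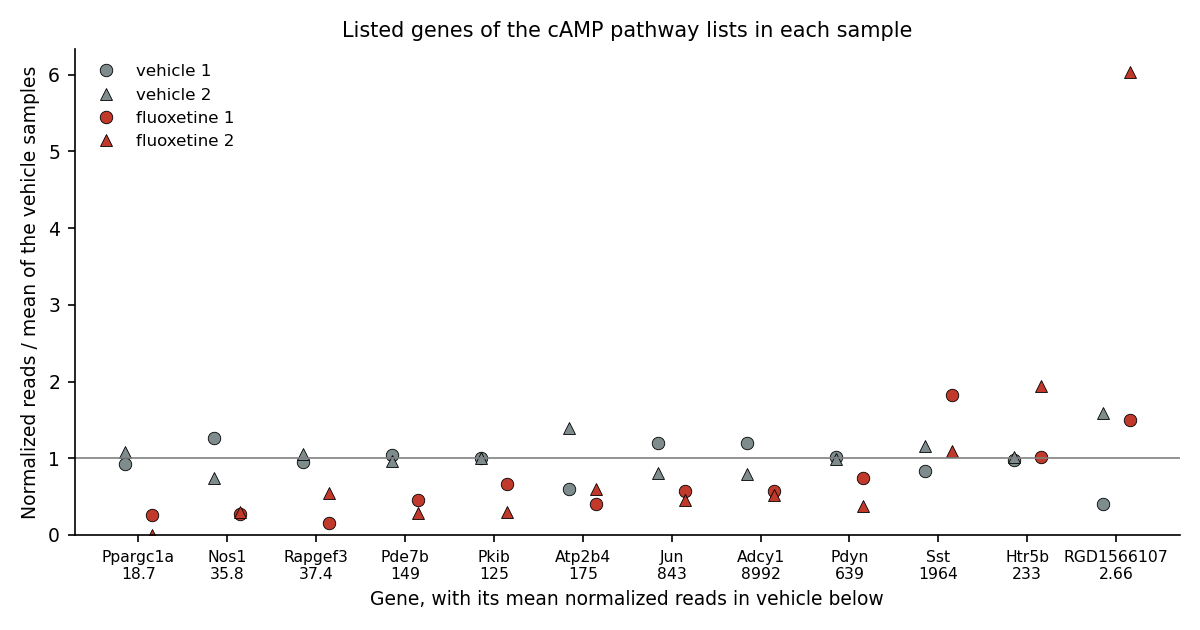
Normalized reads of the 12 listed genes of the cAMP pathway lists in each sample, divided by the mean of the vehicle samples, where grey marks vehicle, red marks fluoxetine, and circles and triangles tell sample 1 from sample 2. The red points lie below both grey points for 9 genes, and Adcy1 and Jun show nearly the same layout of points.

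The genes whose pattern was most like that of Adcy1 were sought among the 102 listed genes with a mean of at least 100 normalized reads, each at 1 transcript. Likeness was measured as the root mean square difference over the 4 samples between log2 normalized reads (plus 1) centred on the mean of each gene. This difference was 0.0741 between the Adcy1 models themselves and had a median of 0.802 over the 102 genes. It was smallest for Jun (0.0886), followed by Lhx2, a homeobox transcription factor (0.151), RGD1561955, now named Dgkh, a diacylglycerol kinase (0.179), Negr1, a neuronal adhesion molecule (0.192), and RGD1564641, now named Heg1 (0.216). In Jun and Lhx2, vehicle sample 1 stood above vehicle sample 2 as in Adcy1, with 475 and 321 normalized reads for Lhx2. In the other genes the vehicle samples were close, as in Negr1 with 345 and 327 and RGD1561955 with 228 and 204. Of the 102 genes, 27 were lower after fluoxetine without overlap, and vehicle sample 1 was above vehicle sample 2 in 15 of these. Measured against the longer model, 4 of the 5 nearest genes were the same. Since only 4 samples enter, the likeness is a description.

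**Figure D5:**
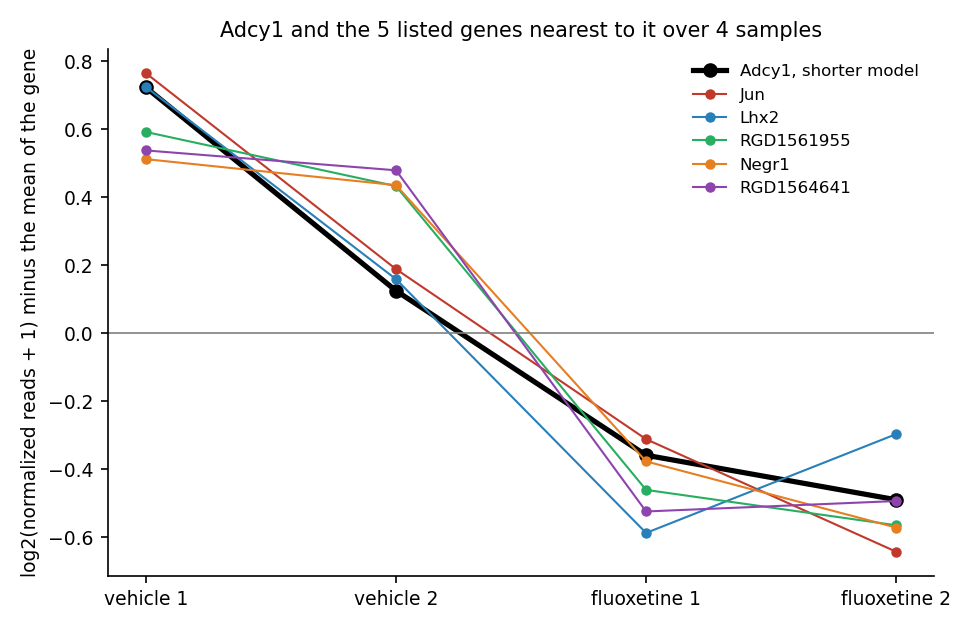
Log2 normalized reads (plus 1) of the shorter Adcy1 model (black) and of the 5 genes nearest to it in each sample, centred on the mean of each gene. Jun and Lhx2 share the step from vehicle sample 1 to vehicle sample 2 with Adcy1, and the other genes do not.

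Markers of hippocampal fields and of other cells were also examined in these samples. Only markers that are in the table, and so had been selected for a difference, could be read. The label of the tissue could thus be checked in part. Of 16 dentate granule cell markers, 2 were listed (Stxbp6 and Dgkh as RGD1561955), and both were lower, with summed levels of 287 to 378 normalized reads after fluoxetine and 633 to 682 after vehicle. Of 11 CA2 and CA3 markers, 2 were listed (Cpne4 and Prkcd), both lower, with sums of 105 to 133 and 287 to 326. Of 10 CA1 markers, 5 were listed with higher group means after fluoxetine, 1 of them (Dcn) without overlap, and the sums were 5520 to 11470 after fluoxetine and 5165 to 6679 after vehicle. Of 14 oligodendrocyte markers, 11 were listed with higher group means, 3 of them without overlap, and the sums were 7336 to 16102 and 5570 to 10780. For both of these lists, fluoxetine sample 2 had the highest sum and that of fluoxetine sample 1 lay between those of the vehicle samples. Over the whole table, 432 of the 830 transcripts were higher, and 254 of these 432 (30.6% of all 830) were without overlap. Of 10 neocortex and subiculum markers, 2 were listed and higher, with sums of 270 to 781 and 147 to 489. Of 13 thalamus and brainstem markers, 3 were listed (Prkcd and Synpo2 lower, Tph2 higher), with sums of 81.1 to 106 and 187 to 244. Prkcd is also on the CA2 and CA3 list and made up most of the sums of both lists. It had 84.5 and 70.4 normalized reads after fluoxetine and 171 and 233 after vehicle. Both hemoglobin genes listed, of 4 red blood cell markers, were lower, with sums of 472 to 620 and 700 to 1844, where vehicle sample 2 was the highest. Of 9 choroid plexus and meningeal markers, 3 were listed (Kl, Clic6 and Dcn, which is also on the CA1 list). Kl had 6 and 2 reads in the fluoxetine samples and 0 in both vehicle samples. Clic6 had 0 in both fluoxetine samples and 1 and 5 reads in the vehicle samples, so both genes were near the floor. None of 8 astrocyte and 6 microglia markers was listed. The part of such markers in the level of Adcy1 was not tested.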

How the data were processed

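Hippocampal mRNA of 4 samples was sequenced as single reads of 36 bp, and the authors aligned them to rn4 with at most 1 mismatch and kept reads with a single genomic position. The deposited read count of each transcript is the number of reads in its exons, made by the authors with Genomatix software. Deposited NE values are a signal: read density per base and per 10000000 library reads, and library totals were computed from it with that factor, which was inferred from the values. For the table, the authors required a p-value below 0.05 in DESeq and more than 1.5-fold change. The deposited p-value served only to choose 1 transcript per gene, while the deposited log2 fold change, adjusted p-value, means and SDs (the authors' own comparison) were not used. Use of strand is not given in these sources. Columns are named as treatment or control with a number and were matched to the sample titles by group and number.

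Counts of all 830 transcripts were fitted in R 4.3.3 by glmQLFit and glmQLFTest of edgeR 4.0.16 (TMM scaling, treatment as the only term, no filter) with Benjamini-Hochberg adjustment. DESeq2 1.42.0 was an alternative. Standard errors were taken from the F statistic. The fit was tested on simulated data in which 200 of the 830 transcripts changed. The simulated spread between samples was set below that of these data (common dispersion 0.268). It checked that known changes are returned, and cannot show how the fit does on a table selected for differences. Summaries used Python 3.11.15, pandas 2.3.3, numpy 2.4.6, scipy 1.17.1 and matplotlib 3.10.9. Older symbols were matched to current ones by gene ID in a RefSeq table of names (GRCr8). Named were Adcy1, every listed gene of the pathway lists and the 5 genes most like Adcy1. Genes above 1000 normalized reads were named after their values were seen. The members, lists and markers were chosen with earlier results of these data known. With only 2 pools of rats in a group, the spread is poorly known. Counting errors cover counting alone, while the standard errors also include the spread between samples as the fitted models estimated it.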

Additional observations from a re-analysis of the deposited data

How the results depend on the processing

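Adcy1 was lower after fluoxetine in both models under every alternative run. The log2 fold change of the shorter model ranged from -0.92 (1 transcript per gene) to -0.74 (library totals or mean NE) over the scalings, filters and tools, and from -1.07 to -0.55 with 1 sample left out. That of the longer model, which has no value with 1 transcript per gene, ranged from -0.76 to -0.65 and from -0.99 to -0.45. TMM without the Adcy1 transcripts gave -0.83 and -0.74. With the replicate number as a block, the values were -0.85 (standard error 0.23) and -0.76 (standard error 0.18), with smaller standard errors than the 0.48 and 0.50 without it. No p is given for Adcy1 in either fit. Over 503 transcripts, samples of the same number deviated together (correlation 0.52), but with 2 pairs this does not show that the numbers pair the samples. The difference in the ratio between the models ranged from -0.17 to -0.0066 with 1 sample left out. The number of lower transcripts without overlap was 195 with 1 transcript per gene and 170 with a mean of at least 10 reads, since fewer transcripts entered, and 365 to 376 with 1 sample left out. The median of the pathway genes ranged from -1.06 to -0.87, while that of all listed transcripts ranged from -0.55 to 0.31 with 1 sample left out. Counts at an unadjusted p under 0.05 were 168 lower and 63 higher with the block. Of the 5 genes most like Adcy1, 1 was left among genes with at least 500 normalized reads, since fewer genes entered, and 5 at other scalings. The transcript that stands for a gene and the model of Adcy1 were varied after seeing the data. Depth limits genes with few reads, such as Nos1 with 89 over the 4 samples.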
